A study of Mus musculus with 12 samples.

Results

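The enzymes that write and erase acetyl and methyl marks on histones were followed in RNA-seq libraries of primary adult mouse cardiac fibroblasts. They were chosen by gene symbol alone, as the protein-coding genes of the Hdac, Sirt, Kat, Kmt, Kdm, Setd and Smyd series together with Ep300, Crebbp, Hat1, Ezh1, Ezh2, Ehmt1, Ehmt2 and Dot1l, and the Y-linked Kdm5d was left out. This gave 72 genes of the 35523 genes in the count tables, and all 72 were among the 18028 genes tested. By class they were 18 deacetylases, 11 acetyltransferases, 26 methyltransferases and 17 demethylases. The cells came from female and male wild-type C57BL/6J mice and were depleted or not of the linker histone H1.0 (gene H1f0) before the cytokine TGF-β was given. The groups were H1.0 siRNA with TGF-β at 10 ng/ml, scramble siRNA with TGF-β at 10 ng/ml, H1.0 siRNA with vehicle, and scramble siRNA with vehicle, with 3 biological replicates each. Every group had been transfected and kept in low serum, the depletion was a transient siRNA knockdown and not a deletion, and the sex of the cells in a library was not given in the labels.

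Acetylation of histone lysines weakens their hold on DNA and is read by activating proteins, whereas methylation acts through the reader proteins of each site: H3K4, H3K36 and H3K79 methylation lies on active genes, and H3K27 and H3K9 methylation on silent ones. The deacetylases fall into zinc-dependent HDACs, grouped as classes I, II and IV, and NAD-dependent sirtuins. When TGF-β turns cardiac fibroblasts into contractile, matrix-making myofibroblasts, several of these enzymes are known to take part, HDACs among them.

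The libraries held 19.9 M to 36.3 M read pairs assigned to transcripts by Salmon (median 24.2 M), and the 3 libraries of H1.0 siRNA with TGF-β were the deepest. H1f0 itself was lower in H1.0 siRNA cells than in scramble cells, by a log2 change of -1.94 ± 0.22 (SE) with TGF-β and -1.63 ± 0.22 with vehicle. In both H1.0 siRNA groups H1f0 was lowest in replicate 3. It had 510 normalized counts there against 843 and 876 with TGF-β, and 600 against 980 and 1075 with vehicle. The 9 fibroblast markers summed to 13945 to 20748 TPM (transcript levels corrected for length and scaled to 1 total in every library) in the 12 libraries. The 7 cardiomyocyte markers summed to 14.6 to 17.2 TPM with H1.0 siRNA and TGF-β, 132 to 164 TPM with scramble and TGF-β, 21.4 to 24.2 TPM with H1.0 siRNA and vehicle, and 177 to 197 TPM with scramble and vehicle. Actc1, Myh6, Myl2 and Ryr2 stayed under 1 TPM in every library, none of the 7 was at 0 in all, and most of the sum was Tnnt2, a thin-filament troponin, which was lower with H1.0 siRNA by a log2 change of -3.57 with TGF-β and -3.30 with vehicle. Tnnt2 and Ryr2 were the 2 of the 7 called lower with H1.0 siRNA under either treatment, and their part in the siRNA differences of the enzymes was not tested. The replicates numbered 3 stood apart. Their chi-square per degree of freedom (squared difference over counting variance) was 27.4 to 69.3 against the other libraries of their group. Between replicates 1 and 2 it was 9.41 to 17.0. The highest values, 59.3 and 69.3, were in H1.0 siRNA with TGF-β, the deepest group. The Y-linked Ddx3y had 1371 to 1682 normalized counts in the replicates numbered 1 and 2125 to 2804 in replicates 2 and 3, and replicate 1 was its lowest library in all 4 groups.

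Nearly all of these enzymes were transcribed in the fibroblasts. Averaged over the 12 libraries, 62 of the 72 reached 10 TPM or more, with a median of 26.7 TPM. Highest was Kmt5a, which places the first methyl group on H4K20, at 127 TPM. Setd3, a methyltransferase best known for methylating actin, followed at 96.6 TPM, then Hdac2 at 93.4 TPM, Setd5 at 84.9 TPM and Hdac1 at 84.2 TPM. At the low end Kdm4d averaged 0.248 TPM and Smyd1, a gene of striated muscle, 0.542 TPM. The 72 genes summed to 2269.5 ± 33.1 TPM with H1.0 siRNA and TGF-β and 2249 ± 73.2 TPM with scramble and TGF-β. With vehicle they summed to 2423 ± 97.5 TPM with H1.0 siRNA and 2468 ± 124 TPM with scramble (SD, n = 3 each). These sums are descriptive and were not tested.

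A gene was called where the adjusted p-value of edgeR's quasi-likelihood test over all 18028 genes was under 0.01. Across the 4 comparisons of 2 groups each, 34 of the 72 enzymes were called at least once: 15 in 1 comparison, 13 in 2 and 6 in 3, and 38 in none. With TGF-β against vehicle in scramble cells, 4 enzymes were higher and 12 lower, where 10.5% of all genes were higher and 7.94% lower. With TGF-β against vehicle in H1.0 siRNA cells, 4 were higher (9.14% of all genes) and 5 lower (6.6% of all genes). H1.0 siRNA against scramble gave 11 higher and 9 lower enzymes with TGF-β, beside 13% and 11.3% of all genes, and 5 higher and 9 lower enzymes with vehicle, beside 13.4% and 11.2% of all genes. In either direction, 18.4%, 15.7%, 24.3% and 24.7% of all genes were called in these 4 comparisons.

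**Figure D1:**
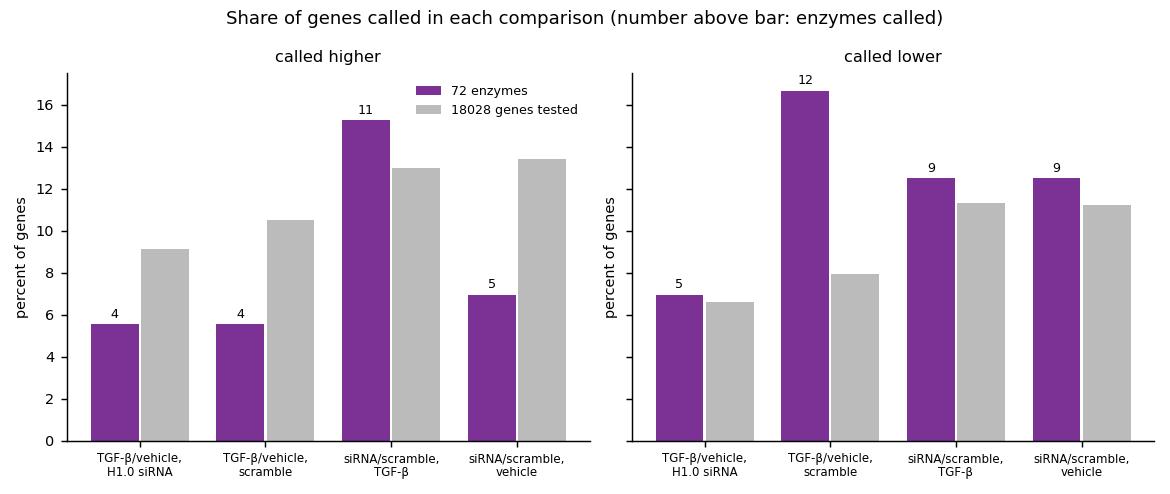
Percent of genes called higher (left panel) and lower (right panel) in each of the 4 comparisons, for the 72 enzymes (purple bars, with the number called above each) and for all 18028 genes tested (grey bars). The purple bar stands above the grey one most clearly for genes lower with TGF-β in scramble cells, where 12 enzymes were called.

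As a share of the 72, the enzymes called lower with TGF-β in scramble cells (16.7%) stood above the share of all genes, and those called higher there (5.56%) below it. The enzymes called higher with H1.0 siRNA and vehicle were 6.94%, against 13.4% of all genes. In the other 5 lists the enzymes' share lay within 4 percentage points of that of all genes. All genes include those with as few as 10 counts over the 12 libraries, so the shares are not matched for expression level. With TGF-β in scramble cells, the unadjusted p-value was under 0.05 for 40 of the 72 enzymes and 7559 of the 18028 genes. The median log2 fold change of the 72 was -0.13 with TGF-β in scramble cells, against -0.01 over all genes. In the other comparisons it was -0.04 (TGF-β in H1.0 siRNA cells, all genes -0.01), 0.08 (H1.0 siRNA with TGF-β, all genes 0.04) and 0.04 (H1.0 siRNA with vehicle, all genes 0). Without the 4 replicates numbered 3, the enzymes called again were 4 of 4 higher and 9 of 12 lower with TGF-β in scramble cells, 2 of 4 higher and 3 of 5 lower with TGF-β in H1.0 siRNA cells, 8 of 11 higher and 7 of 9 lower with H1.0 siRNA and TGF-β, and 3 of 5 higher and 8 of 9 lower with H1.0 siRNA and vehicle.

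These counts moved with single libraries. The share of all genes called without each library is not given here, and whether the moves are particular to the enzymes was not tested. The 12 enzymes lower with TGF-β in scramble cells became 6 without vehicle scramble replicate 1, 5 without vehicle scramble replicate 2, 6 without TGF-β scramble replicate 1 and 5 without TGF-β scramble replicate 3. With TGF-β in H1.0 siRNA cells, the 4 higher became 2, 1 and 2 without vehicle H1.0 siRNA replicates 1, 2 and 3 and 2 without TGF-β H1.0 siRNA replicate 3. The 5 lower there became 3 without vehicle H1.0 siRNA replicate 1 or TGF-β H1.0 siRNA replicate 1 or 3. With H1.0 siRNA and TGF-β, the 11 higher became 7 without TGF-β scramble replicate 1 or 2 and 6 without TGF-β H1.0 siRNA replicate 1. With H1.0 siRNA and vehicle, the 9 lower became 5 without vehicle scramble replicate 1 or vehicle H1.0 siRNA replicate 3. By class, the 12 lower with TGF-β in scramble cells were 6 deacetylases, 3 methyltransferases, 2 acetyltransferases and 1 demethylase. These were 33.3%, 11.5%, 18.2% and 5.88% of their classes, against 7.94% of all genes.

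**Figure D2:**
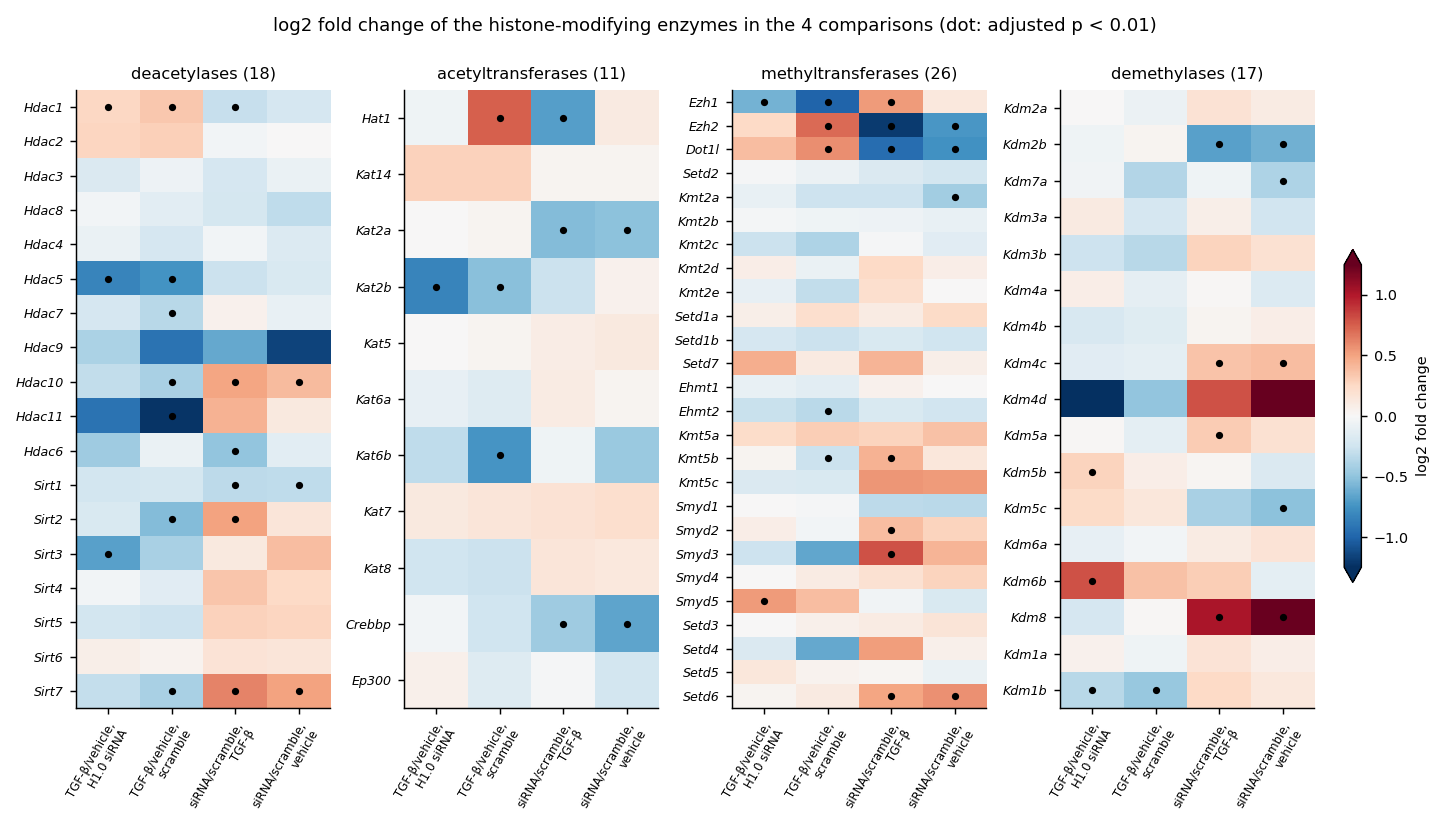
Log2 fold change (colour, with values past the ends of the scale shown at its end colours) of each of the 72 enzymes in the 4 comparisons, one panel per class with genes in rows, and a dot where the adjusted p-value was under 0.01. Ezh1 and Ezh2 have opposite colours for TGF-β in scramble cells and for H1.0 siRNA with TGF-β, and blue cells prevail among deacetylases in the TGF-β columns.

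Ezh2 and Ezh1, the alternative catalytic subunits of Polycomb repressive complex 2 (PRC2), which methylates H3K27, were called in opposite directions with TGF-β in scramble cells. Ezh2 had 458, 423 and 531 normalized counts with H1.0 siRNA and TGF-β and 957, 1069 and 1219 with scramble and TGF-β. In vehicle, Ezh2 had 406, 412 and 373 with H1.0 siRNA and 625, 596 and 759 with scramble (normalized counts are read counts scaled to a common library size). The scramble libraries with TGF-β lay above all 9 others. TGF-β raised Ezh2 in scramble cells by a log2 change of 0.71 ± 0.12 (SE, adjusted p = 0.0012), and H1.0 siRNA lowered it both with TGF-β (-1.20 ± 0.12, adjusted p = 2.3e-05) and with vehicle (-0.73 ± 0.12, adjusted p = 0.00071). In H1.0 siRNA cells the TGF-β difference was 0.25 ± 0.12 and was not called (adjusted p = 0.16).

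Ezh1 had 1159, 1152 and 1010.5 normalized counts with H1.0 siRNA and TGF-β and 813, 751 and 733 with scramble and TGF-β. In vehicle, Ezh1 had 1661, 1744 and 1603 with H1.0 siRNA and 1750.2, 1535 and 1299 with scramble. Its lowest libraries were thus those where Ezh2 was highest. TGF-β lowered Ezh1 by a log2 change of -1.0 ± 0.10 in scramble cells (adjusted p = 8.7e-05) and -0.59 ± 0.10 in H1.0 siRNA cells (adjusted p = 0.0015). With TGF-β, H1.0 siRNA cells held more Ezh1 than scramble cells (0.53 ± 0.10, adjusted p = 0.0018), a call lost with an offset for transcript length (adjusted p = 0.02). With vehicle the difference was 0.13 ± 0.10 (adjusted p = 0.37). Since these are bulk libraries, a change in the share of cells expressing a gene and a change in RNA per cell cannot be told apart.

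In TPM, which allows genes to be compared, Ezh2 stood at 34.7 ± 4.69 TPM and Ezh1 at 16.7 ± 1.63 TPM in scramble cells with TGF-β, against 23.0 ± 3.85 TPM for Ezh2 and 32.7 ± 5.36 TPM for Ezh1 in scramble cells with vehicle (SD, n = 3 each). In H1.0 siRNA cells Ezh1 was the higher of the pair under both treatments, with 21.5 ± 2.58 TPM against 14.8 ± 1.88 TPM for Ezh2 with TGF-β and 34.0 ± 3.18 TPM against 15.0 ± 0.713 TPM with vehicle. Ezh2 was thus above Ezh1 only in scramble cells given TGF-β.

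Dot1l, the H3K79 methyltransferase, and Hat1, which acetylates newly made histone H4 before it is assembled into chromatin, were the other enzymes of this size to be higher with TGF-β in scramble cells. Dot1l had 879, 928 and 1068 normalized counts with H1.0 siRNA and TGF-β and 1694, 1719 and 2128 with scramble and TGF-β. In vehicle, Dot1l had 654, 677 and 854 with H1.0 siRNA and 1197, 1134 and 1373 with scramble. It was lower with H1.0 siRNA under both treatments, by a log2 change of -0.95 ± 0.13 with TGF-β (adjusted p = 0.00018) and -0.76 ± 0.13 with vehicle (adjusted p = 0.00086). Its rise with TGF-β in scramble cells (0.58 ± 0.13, adjusted p = 0.0057) was not called with a length offset (adjusted p = 0.023) nor without vehicle scramble replicate 1 or 2 or TGF-β scramble replicate 2 or 3 (adjusted p between 0.011 and 0.028). In H1.0 siRNA cells TGF-β gave 0.39 ± 0.13 (adjusted p = 0.041).

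Hat1 had 600.5, 582 and 578 normalized counts with H1.0 siRNA and TGF-β and 902, 956 and 975 with scramble and TGF-β. In vehicle, Hat1 had 620.4, 627 and 569 with H1.0 siRNA and 499.9, 591 and 591 with scramble. Only the 3 scramble libraries with TGF-β were high, and the other 9 lay between 499.9 and 627. TGF-β raised Hat1 in scramble cells (log2 fold change 0.75 ± 0.08, adjusted p = 8.7e-05) and gave -0.05 ± 0.08 in H1.0 siRNA cells (adjusted p = 0.72). H1.0 siRNA lowered Hat1 with TGF-β (-0.69 ± 0.08, adjusted p = 4.7e-05), while with vehicle the difference was 0.11 ± 0.08 (adjusted p = 0.3).

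The promoters of these 4 genes are shown because TGF-β in scramble cells raised Ezh2, Hat1 and Dot1l and lowered Ezh1. Each run covers 250 bases before the RefSeq transcription start and 25 from it (GRCm38.p6), 5′ to 3′ on the gene's strand, with matches in capitals to CCAAT (or its complement ATTGG), the box bound by NF-Y, and to the E2F letters TTTCCCGC, TTTGGCGC and TTTCGCGC, on both strands.
Ezh2, chr6:47595006-47595280, minus strand: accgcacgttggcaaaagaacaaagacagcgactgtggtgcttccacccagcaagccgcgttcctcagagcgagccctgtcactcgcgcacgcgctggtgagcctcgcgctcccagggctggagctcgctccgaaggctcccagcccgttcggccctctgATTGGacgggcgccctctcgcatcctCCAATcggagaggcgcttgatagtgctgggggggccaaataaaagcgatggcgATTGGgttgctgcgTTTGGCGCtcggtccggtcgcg
Hat1, chr2:71389010-71389284, plus strand: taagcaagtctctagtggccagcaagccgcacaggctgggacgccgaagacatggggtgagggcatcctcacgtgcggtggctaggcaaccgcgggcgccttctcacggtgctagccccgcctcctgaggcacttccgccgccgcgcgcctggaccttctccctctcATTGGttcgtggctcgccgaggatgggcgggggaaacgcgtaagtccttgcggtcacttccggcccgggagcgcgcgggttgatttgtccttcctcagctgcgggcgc
Dot1l, chr10:80754953-80755227, plus strand: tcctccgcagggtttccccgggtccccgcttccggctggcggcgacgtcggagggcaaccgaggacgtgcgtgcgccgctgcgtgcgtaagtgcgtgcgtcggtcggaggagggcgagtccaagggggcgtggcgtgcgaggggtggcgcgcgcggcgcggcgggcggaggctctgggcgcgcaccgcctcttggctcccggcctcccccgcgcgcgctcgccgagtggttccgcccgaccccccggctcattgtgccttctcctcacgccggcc
Ezh1, chr11:101226439-101226713, minus strand: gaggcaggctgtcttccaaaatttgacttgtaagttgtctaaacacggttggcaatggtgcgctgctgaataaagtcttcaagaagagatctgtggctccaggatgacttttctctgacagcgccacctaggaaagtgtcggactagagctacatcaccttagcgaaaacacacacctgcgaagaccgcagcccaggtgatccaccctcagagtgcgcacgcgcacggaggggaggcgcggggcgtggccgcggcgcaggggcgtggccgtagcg
Ezh2 held 3 CCAAT matches and 1 match to the E2F letters, Hat1 held 1 CCAAT match, and Dot1l and Ezh1 held none of either. Over windows of 300 bases, the E2F letters occurred in 1.84% of all 32851 mouse promoter windows and in 3 of the 80 windows of the 59 enzymes with an entry, those of Ezh2, Kmt5c and Sirt4. CCAAT occurred in 37.4% of all windows and in 41.2% of the enzymes' windows. A match of letters is a description and not a binding site.

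Genes of DNA replication are given beside Ezh2, Hat1 and Dot1l. Of 18 S phase genes, such as the Mcm helicase genes and Pcna, TGF-β in scramble cells raised 17 (94.4%, against 10.5% of all genes, median log2 fold change 0.93). With H1.0 siRNA and TGF-β, 17 were lower (against 11.3% of all genes, median -1.96). With vehicle 15 were lower with H1.0 siRNA (against 11.2% of all genes, median -1.18). With TGF-β in H1.0 siRNA cells 3 were higher (against 9.14% of all genes, median 0.11). Their summed level was 325 to 426 TPM with H1.0 siRNA and TGF-β, 849 to 971 TPM with scramble and TGF-β, 273 to 304 TPM with H1.0 siRNA and vehicle, and 434 to 547 TPM with scramble and vehicle, so the groups did not overlap between scramble and H1.0 siRNA under either treatment. All 13 mitosis genes were lower with H1.0 siRNA and TGF-β (against 11.3% of all genes, median -2.13). With H1.0 siRNA and vehicle 12 were lower (against 11.2%, median -1.33), and none of the 13 was called with TGF-β under either siRNA. What part the number of dividing cells had in the levels of Ezh2, Hat1 and Dot1l was not tested.

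**Figure D3:**
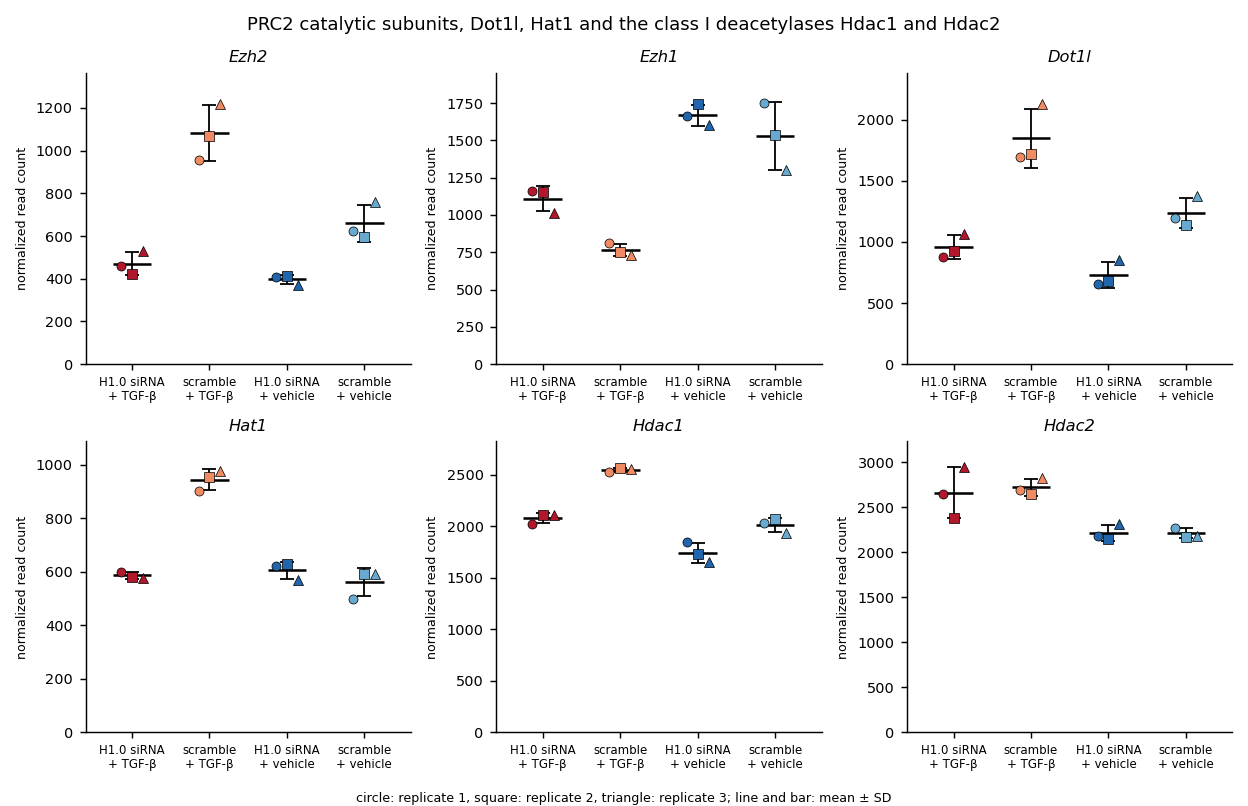
Normalized read counts of Ezh2, Ezh1, Dot1l, Hat1, Hdac1 and Hdac2 in the 12 libraries, by group (points: libraries, with a symbol for each replicate number; lines and bars: mean and SD of 3). Scramble cells with TGF-β hold the highest values of Ezh2, Dot1l, Hat1 and Hdac1 and the lowest of Ezh1, while Hdac2 overlaps between both TGF-β groups.

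The class I deacetylases are the catalytic subunits of the large co-repressor complexes, such as Sin3, NuRD and CoREST for Hdac1 and Hdac2. Hdac1 had 2021, 2106 and 2111 normalized counts with H1.0 siRNA and TGF-β and 2523, 2563 and 2552 with scramble and TGF-β. In vehicle, Hdac1 had 1844, 1726 and 1652 with H1.0 siRNA and 2028, 2071 and 1932 with scramble. It was higher with TGF-β in scramble cells (log2 fold change 0.34 ± 0.06, adjusted p = 0.001), and lower with H1.0 siRNA in the presence of TGF-β (-0.29 ± 0.06, adjusted p = 0.0017). Hdac1 was also higher with TGF-β in H1.0 siRNA cells (0.26 ± 0.06, adjusted p = 0.0056), but this call was lost without vehicle H1.0 siRNA replicate 2 or 3 or any 1 of the TGF-β H1.0 siRNA replicates (adjusted p between 0.011 and 0.02) and under 3 other settings (adjusted p up to 0.036). With vehicle the H1.0 siRNA difference was -0.21 ± 0.06 and just missed the threshold (adjusted p = 0.012). The 2 responses to TGF-β differed by -0.08 ± 0.08 (adjusted p = 0.75).

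Its close paralog Hdac2 was not called in any comparison. It had 2651, 2387 and 2952 normalized counts with H1.0 siRNA and TGF-β and 2690.4, 2653 and 2827 with scramble and TGF-β. In vehicle, Hdac2 had 2184, 2148 and 2316 with H1.0 siRNA and 2275, 2172 and 2187 with scramble. Both TGF-β groups lay above both vehicle groups without overlap, with a log2 change of 0.30 ± 0.07 in scramble cells (adjusted p = 0.01, just above the threshold) and 0.27 ± 0.07 in H1.0 siRNA cells (adjusted p = 0.02). H1.0 siRNA gave -0.03 ± 0.07 with TGF-β and 0.00 ± 0.07 with vehicle. Hdac3 lay between 802 and 1076 normalized counts over the 12 libraries, and Hdac8, which acts on the cohesin ring, between 221 and 315, and neither was called. For Hdac8 the lowest adjusted p was 0.025, with H1.0 siRNA in vehicle (-0.32 ± 0.10).

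Outside class I, the deacetylases called with TGF-β in scramble cells were all lower, namely Hdac5, Hdac7, Hdac10, Hdac11, Sirt2 and Sirt7. Over all 18 deacetylases the median log2 fold change there was -0.24, and 15 of the 18 were below 0. Hdac5, a class IIa enzyme that shuttles out of the nucleus on signalling and represses MEF2 target genes, had 1119.5, 1226 and 847 normalized counts with H1.0 siRNA and TGF-β and 1396, 1202 and 1249.5 with scramble and TGF-β. In vehicle, Hdac5 had 1967, 1925 and 1784 with H1.0 siRNA and 2445, 2146 and 1894 with scramble. All 6 TGF-β libraries were below all 6 vehicle libraries. The log2 fold change was -0.75 ± 0.13 in scramble cells (adjusted p = 0.0015) and -0.83 ± 0.13 in H1.0 siRNA cells (adjusted p = 0.00094), and H1.0 siRNA gave -0.27 ± 0.13 with TGF-β and -0.19 ± 0.13 with vehicle (adjusted p = 0.14 and 0.29). Hdac7, of the same class, averaged 2789 ± 125 normalized counts with TGF-β and 3544 ± 149 with vehicle in scramble cells (SD, n = 3 each, log2 fold change -0.35 ± 0.06, adjusted p = 0.0014), and -0.21 ± 0.06 in H1.0 siRNA cells was not called (adjusted p = 0.023). Of the remaining class IIa genes, Hdac4 was not called, and neither was Hdac9, at 37.1 to 202 normalized counts and a lowest log2 fold change of -1.16 ± 0.34 (H1.0 siRNA with vehicle, adjusted p = 0.021).

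Hdac11, the class IV enzyme, known to remove long fatty acyl groups, had the widest fall with TGF-β in scramble cells of any enzyme. It had 169, 189 and 139.6 normalized counts with TGF-β against 476, 465 and 227 with vehicle in scramble cells (log2 fold change -1.23 ± 0.26, adjusted p = 0.0046). In H1.0 siRNA cells it had 234, 262 and 174 with TGF-β against 407, 488 and 378 with vehicle (-0.92 ± 0.25, adjusted p = 0.019). Vehicle scramble replicate 3 was the low one of its group, and the call was lost without vehicle scramble replicate 1 or 2 or any 1 of the TGF-β scramble replicates (adjusted p between 0.011 and 0.023), and in a fit of those 2 groups alone (adjusted p = 0.017). Macrophage markers were also lower with TGF-β: 3 of 8 were called lower in each of the TGF-β comparisons. Of all genes, 7.94% were lower in scramble cells and 6.6% in H1.0 siRNA cells. The macrophage markers summed to 135 to 196 TPM with H1.0 siRNA and TGF-β, 159 to 170 TPM with scramble and TGF-β, 250 to 281 TPM with H1.0 siRNA and vehicle, and 217 to 295 TPM with scramble and vehicle. The part of macrophages in the lower deacetylase levels was not tested.

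**Figure D4:**
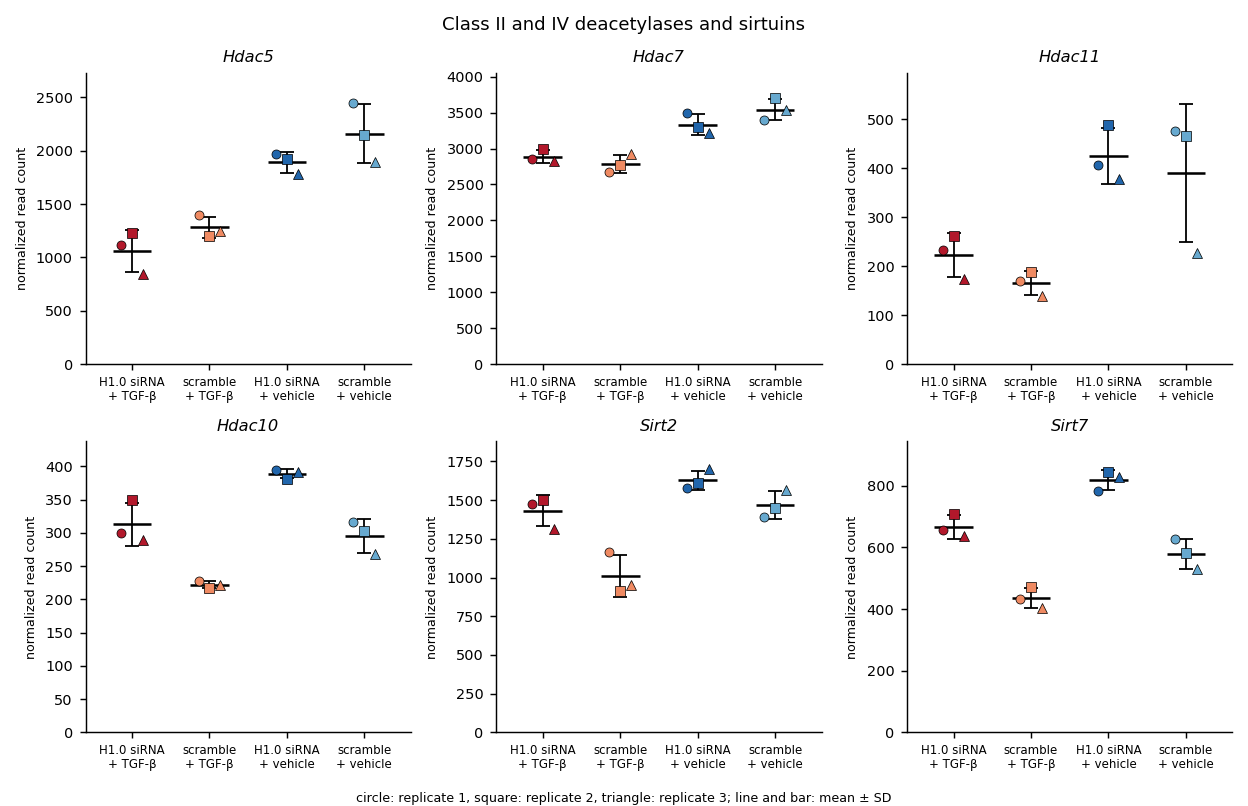
Normalized read counts of Hdac5, Hdac7, Hdac11, Hdac10, Sirt2 and Sirt7 in the 12 libraries, by group (points: libraries, lines and bars: mean and SD of 3). TGF-β values of Hdac5 are below the vehicle values under either siRNA, and Hdac10, Sirt2 and Sirt7 have their lowest values with scramble and TGF-β.

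H1.0 siRNA raised Hdac10, Sirt2 and Sirt7 in the presence of TGF-β, and Hdac10 and Sirt7 also with vehicle. Sirt7, a nucleolar sirtuin that removes H3K18 acetylation, had 655, 709 and 635 normalized counts with H1.0 siRNA and TGF-β and 432, 470.2 and 404 with scramble and TGF-β. In vehicle, Sirt7 had 781, 844 and 829 with H1.0 siRNA and 626, 582 and 528 with scramble. H1.0 siRNA raised it by a log2 change of 0.62 ± 0.08 with TGF-β (adjusted p = 0.00019) and 0.50 ± 0.08 with vehicle (adjusted p = 0.00076), the vehicle call being lost with a length offset (adjusted p = 0.077). Its fall with TGF-β in scramble cells (-0.41 ± 0.09, adjusted p = 0.0039) was lost with a length offset (adjusted p = 0.012), in a fit of those 2 groups alone (adjusted p = 0.021) and without vehicle scramble replicate 1 or 2 or TGF-β scramble replicate 1 or 3 (adjusted p between 0.014 and 0.019). In H1.0 siRNA cells TGF-β gave -0.30 ± 0.08 (adjusted p = 0.02).

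Sirt2, a mainly cytoplasmic sirtuin whose substrates include tubulin and H4K16, averaged 1431 ± 99.5 normalized counts with H1.0 siRNA and TGF-β against 1010.1 ± 134 with scramble and TGF-β (log2 fold change 0.50 ± 0.09, adjusted p = 0.0015, lost in a fit of those 2 groups alone at adjusted p = 0.012). With vehicle it averaged 1628 ± 63.3 with H1.0 siRNA against 1468 ± 89.2 with scramble (SD, n = 3 each, 0.15 ± 0.09, adjusted p = 0.24). TGF-β lowered it in scramble cells by -0.54 ± 0.09 (adjusted p = 0.0015), and with the replicates 3 left out the adjusted p was 0.01. Hdac10, which deacetylates polyamines, averaged 313 ± 32.2 normalized counts with H1.0 siRNA and TGF-β and 222 ± 5.82 with scramble and TGF-β. In vehicle, Hdac10 averaged 389 ± 7.07 with H1.0 siRNA and 295 ± 24.9 with scramble. The H1.0 siRNA differences were 0.49 ± 0.10 with TGF-β (adjusted p = 0.0022) and 0.40 ± 0.10 with vehicle (adjusted p = 0.0073), and TGF-β in scramble cells gave -0.41 ± 0.10 (adjusted p = 0.0087). Of these, the first was lost without TGF-β scramble replicate 2 (adjusted p = 0.01). The second was lost without any of 9 libraries (all but vehicle scramble replicate 1 and TGF-β H1.0 siRNA replicates 2 and 3, adjusted p between 0.011 and 0.028). The third was lost without any of 9 (all but vehicle scramble replicate 3 and TGF-β H1.0 siRNA replicates 2 and 3, adjusted p between 0.01 and 0.033). They were also lost under 2, 5 and 5 other settings.

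Hdac6, the tubulin deacetylase, was lower with H1.0 siRNA and TGF-β, at 442, 488 and 348 normalized counts against 610.3, 607 and 582 with scramble and TGF-β (log2 fold change -0.49 ± 0.12, adjusted p = 0.0081). This call was lost without any of 8 libraries, all but vehicle scramble replicate 3, vehicle H1.0 siRNA replicates 2 and 3 and TGF-β H1.0 siRNA replicate 2 (adjusted p between 0.011 and 0.026), and under 3 other settings (adjusted p up to 0.023). The mitochondrial Sirt3 was lower with TGF-β in H1.0 siRNA cells, at 131, 133 and 109.5 normalized counts against 185, 236 and 177 with vehicle (-0.68 ± 0.14, adjusted p = 0.0044), and the call was lost without vehicle H1.0 siRNA replicate 1 or 2 or TGF-β H1.0 siRNA replicate 1 or 3 (adjusted p between 0.011 and 0.021) and under 3 other settings (adjusted p up to 0.028). Sirt1, the nuclear sirtuin, was named after its values were seen. H1.0 siRNA lowered it to 319 ± 13.5 normalized counts with TGF-β, against 402 ± 3.63 with scramble (-0.33 ± 0.07, adjusted p = 0.0041), and to 375 ± 21.5 with vehicle, against 467 ± 14.8 with scramble (SD, n = 3 each, -0.32 ± 0.07, adjusted p = 0.0052). With a length offset the adjusted p of these Sirt1 differences was 0.24 and 0.19, and 2 and 3 further settings also ended them. Leaving out a library ended the first for 5 libraries (the 3 TGF-β scramble replicates and TGF-β H1.0 siRNA replicates 1 and 2, adjusted p between 0.012 and 0.019) and the second for 4 (vehicle scramble replicates 1 and 2 and vehicle H1.0 siRNA replicates 1 and 3, adjusted p between 0.013 and 0.026).

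Among the 11 acetyltransferases no enzyme was called higher with H1.0 siRNA, and 3 were called lower with TGF-β (27.3%, against 11.3% of all genes) and 2 with vehicle (18.2%, against 11.2%). Of all genes, 13.0% were called higher with H1.0 siRNA and TGF-β and 13.4% with vehicle. Crebbp and Ep300, the paralogous coactivators CBP and p300 that acetylate H3K27, gave different calls. Crebbp had 3326, 3967 and 3509 normalized counts with H1.0 siRNA and TGF-β and 5007, 5171 and 4478 with scramble and TGF-β. In vehicle, Crebbp had 3657, 3883 and 3458 with H1.0 siRNA and 6577, 5935 and 4904 with scramble. All H1.0 siRNA libraries were below all scramble libraries, with a log2 change of -0.66 ± 0.11 with vehicle (adjusted p = 0.00064) and -0.44 ± 0.11 with TGF-β (adjusted p = 0.0079). The TGF-β call was lost without vehicle scramble replicate 2, TGF-β scramble replicate 1 or 2, vehicle H1.0 siRNA replicate 1 or 2 or TGF-β H1.0 siRNA replicate 1 or 3 (adjusted p between 0.01 and 0.036). Ep300 had 3396, 3618 and 3609 normalized counts with H1.0 siRNA and TGF-β and 3729, 3564 and 3368 with scramble and TGF-β. In vehicle, Ep300 had 3283, 3708 and 3199 with H1.0 siRNA and 4554, 3916 and 3459 with scramble. Its groups overlapped in each comparison, and H1.0 siRNA gave -0.01 ± 0.10 with TGF-β (adjusted p = 0.98) and -0.23 ± 0.10 with vehicle (adjusted p = 0.087). The difference between Crebbp and Ep300 was not itself tested.

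The paralogs Kat2a (GCN5) and Kat2b (PCAF), which acetylate H3K9 in the SAGA and ATAC complexes, were called for different factors. The difference between Kat2a and Kat2b was not itself tested. Kat2a followed the siRNA. It had 731, 719 and 685 normalized counts with H1.0 siRNA and TGF-β and 1094, 1030.0 and 986 with scramble and TGF-β. In vehicle, Kat2a had 704, 716 and 722 with H1.0 siRNA and 1091, 1026 and 929.7 with scramble. H1.0 siRNA lowered it by a log2 change of -0.54 ± 0.07 with TGF-β (adjusted p = 0.00012) and -0.51 ± 0.07 with vehicle (adjusted p = 0.00021), and TGF-β gave 0.00 ± 0.07 in H1.0 siRNA cells and 0.03 ± 0.07 in scramble cells. Kat2b followed TGF-β. Its values were 1912, 1799 and 1370.1 normalized counts with H1.0 siRNA and TGF-β and 2097, 2068 and 1962 with scramble and TGF-β. In vehicle, Kat2b had 3102, 2879 and 3079 with H1.0 siRNA and 3096, 2886 and 2781 with scramble, above all TGF-β libraries. With TGF-β, every H1.0 siRNA library lay below every scramble library, though the siRNA difference was called under neither treatment. TGF-β lowered Kat2b by -0.83 ± 0.10 in H1.0 siRNA cells (adjusted p = 0.00024) and -0.52 ± 0.10 in scramble cells (adjusted p = 0.0035), the scramble call being lost without vehicle scramble replicate 1 or 2 or any 1 of the TGF-β scramble replicates (adjusted p between 0.01 and 0.017).

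Kat6b, a MYST acetyltransferase of H3K23, had 898, 887 and 857 normalized counts with TGF-β against 1426, 1601 and 1385 with vehicle in scramble cells (log2 fold change -0.74 ± 0.14, adjusted p = 0.0027). Without vehicle scramble replicate 2 or TGF-β scramble replicate 2 or 3 the adjusted p was 0.011 to 0.013. Kat7, the highest MYST acetyltransferase in TPM and one that acts at replication origins, was not called, with adjusted p-values of 0.021 or more.

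Among the 17 demethylases the clearest differences followed the siRNA. Kdm8 (JMJD5) had 169.9, 193 and 169 normalized counts with H1.0 siRNA and TGF-β and 98.8, 78.6 and 84.0 with scramble and TGF-β. In vehicle, Kdm8 had 218, 201 and 195 with H1.0 siRNA and 90.4, 70.7 and 98.3 with scramble. H1.0 siRNA raised it without overlap, by a log2 change of 1.02 ± 0.15 with TGF-β (adjusted p = 0.00027) and 1.24 ± 0.15 with vehicle (adjusted p = 7.7e-05), although its level was low, at 4.34 TPM over the 12 libraries. Kdm2b, which brings Polycomb complexes to CpG islands and demethylates H3K36, went the other way. It had 611, 598 and 602 normalized counts with H1.0 siRNA and TGF-β and 970.1, 986 and 953 with scramble and TGF-β. In vehicle, Kdm2b had 642, 636 and 602 with H1.0 siRNA and 985, 994 and 861 with scramble, so the siRNA groups did not overlap. Its log2 fold change was -0.68 ± 0.07 with TGF-β (adjusted p = 1.7e-05) and -0.60 ± 0.07 with vehicle (adjusted p = 4.8e-05). Its paralog Kdm2a, the highest demethylase at 74.2 TPM, was not called.

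Kdm6b, which removes H3K27 methylation and so opposes Ezh1 and Ezh2, was the enzyme with the widest rise with TGF-β in H1.0 siRNA cells. It had 2049.8, 2432 and 2652 normalized counts with TGF-β against 1205, 1452 and 1431 with vehicle in H1.0 siRNA cells (log2 fold change 0.80 ± 0.11, adjusted p = 0.00044). In scramble cells it had 1680.3, 2069.6 and 1996 with TGF-β against 1414, 1552 and 1492 with vehicle (0.37 ± 0.11, adjusted p = 0.027), which did not overlap but was not called. The difference between these responses, 0.44 ± 0.16, was not called either (adjusted p = 0.29). Its X-linked paralog Kdm6a was called in no comparison, and in each of the 4 groups its highest library was replicate 1, the one low in the Y-linked Ddx3y. The X-linked Hdac6 and Hdac8 did not share this, as replicate 1 was highest in 1 group for Hdac6 and in 0 for Hdac8.

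**Figure D5:**
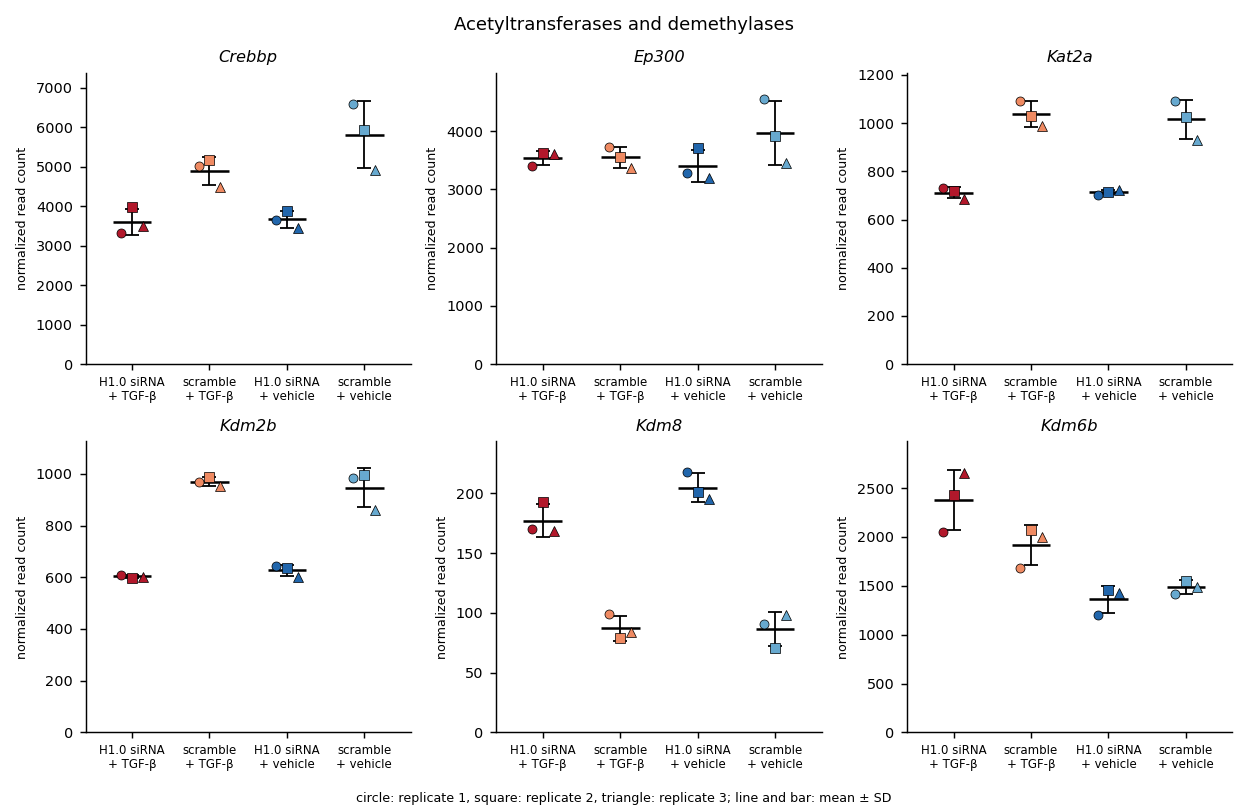
Normalized read counts of Crebbp, Ep300, Kat2a, Kdm2b, Kdm8 and Kdm6b in the 12 libraries, by group (points: libraries, lines and bars: mean and SD of 3). H1.0 siRNA values are below scramble values for Crebbp, Kat2a and Kdm2b and above them for Kdm8, under both treatments, while Ep300 overlaps between groups.

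Kdm4c, a demethylase of H3K9 and H3K36, was higher with H1.0 siRNA, at 1112 ± 60.05 normalized counts against 865 ± 28.0 with TGF-β (log2 fold change 0.36 ± 0.08, adjusted p = 0.003) and at 1228 ± 69.4 against 938 ± 78.6 with vehicle (SD, n = 3 each, 0.39 ± 0.08, adjusted p = 0.002). A length offset ended both calls (adjusted p = 0.016 and 0.019), a fit of the 2 vehicle groups alone ended the one with vehicle (adjusted p = 0.013), and the one with TGF-β was also lost without TGF-β scramble replicate 1 or 3 or TGF-β H1.0 siRNA replicate 1 (adjusted p between 0.011 and 0.015). Kdm1b (LSD2), an H3K4 demethylase, was lower with TGF-β, at 348 ± 17.1 normalized counts against 482 ± 9.21 in scramble cells (-0.47 ± 0.07, adjusted p = 0.00078) and at 413 ± 13.0 against 526 ± 31.1 in H1.0 siRNA cells (-0.35 ± 0.07, adjusted p = 0.0041). The H1.0 siRNA call was lost without vehicle H1.0 siRNA replicate 1 or 3 or any 1 of the TGF-β H1.0 siRNA replicates (adjusted p between 0.012 and 0.017), and under 4 other settings (adjusted p up to 0.036). Its better-known paralog Kdm1a (LSD1) was not called, and neither were Kdm3a and Kdm4a, the highest of their families.

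The KDM5 enzymes, which demethylate H3K4, each passed the test in a different comparison, and differences between these enzymes were not tested. Kdm5a was higher with H1.0 siRNA and TGF-β, at 4290.4, 4184 and 4124 normalized counts against 3264, 3406 and 3407 with scramble and TGF-β (log2 fold change 0.32 ± 0.07, adjusted p = 0.0032). Kdm5b was higher with TGF-β in H1.0 siRNA cells, at 3569, 3806 and 3899.8 against 3050.3, 3149 and 3072 with vehicle (0.28 ± 0.06, adjusted p = 0.0067). The X-linked Kdm5c, named after its values were seen, was lower with H1.0 siRNA and vehicle, at 3172, 2667 and 2767 against 4650.4, 3769 and 3825 with scramble (-0.51 ± 0.11, adjusted p = 0.0035), and replicate 1 was its highest library in all 4 groups. Some uncalled siRNA differences also separated the libraries. Kdm5a with vehicle had 4204, 4221 and 4068 with H1.0 siRNA against 3751, 3915 and 3251 with scramble. Kdm5b with vehicle had 3050.3, 3149 and 3072 against 3585, 3718 and 3220. Kdm5c with TGF-β had 3621, 3443 and 3118 against 5047, 4338 and 4102. The other uncalled comparisons of these genes overlapped. The Kdm5a call was lost without TGF-β scramble replicate 1 or 2 or TGF-β H1.0 siRNA replicate 1 or 2 (adjusted p between 0.011 and 0.015). That of Kdm5b was lost without TGF-β scramble replicate 1 or 2, any 1 of the vehicle H1.0 siRNA replicates or TGF-β H1.0 siRNA replicate 2 or 3 (adjusted p between 0.011 and 0.027, and up to 0.023 under 4 other settings). That of Kdm5c was lost without vehicle scramble replicate 1 or vehicle H1.0 siRNA replicate 2 or 3 (adjusted p between 0.012 and 0.013). Kdm7a, which removes H3K9 and H3K27 dimethylation and was also named after its values were seen, was lower with H1.0 siRNA and vehicle (-0.39 ± 0.10, adjusted p = 0.0089). That call was lost under 3 other settings (adjusted p up to 0.045) and without any library but vehicle scramble replicate 3 and vehicle H1.0 siRNA replicate 2 (adjusted p between 0.01 and 0.038).

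The 8 genes grouped here as H3K4 methyltransferases carry a class label, and their activity was not measured. None was called with TGF-β under either siRNA or with H1.0 siRNA and TGF-β. Of all genes, 18.4% were called with TGF-β in scramble cells, 15.7% in H1.0 siRNA cells and 24.3% with H1.0 siRNA and TGF-β. In so small a group this is not read as a lack of response. With TGF-β in scramble cells, 5 of the 8 had an unadjusted p-value under 0.05, as did 7559 of all 18028 genes. Only Kmt2a (MLL1), named after its values were seen, was lower with H1.0 siRNA and vehicle (log2 fold change -0.43 ± 0.11, adjusted p = 0.0097), where 11.2% of all genes were. That call was lost under 2 other settings (adjusted p up to 0.041) and on leaving out any library but vehicle scramble replicate 3 (adjusted p between 0.011 and 0.038). Neither Kmt2e, the highest in TPM of the 8 genes given this label, nor Setd2, which trimethylates H3K36, was called. Ehmt2 (G9a), which methylates H3K9, was lower with TGF-β in scramble cells, at 2285, 2264 and 2069 normalized counts against 3022, 2814 and 2529 with vehicle (-0.34 ± 0.08, adjusted p = 0.0093), and this was lost under 5 other settings (adjusted p up to 0.021) and without any library but vehicle scramble replicate 3 and TGF-β H1.0 siRNA replicate 2 (adjusted p between 0.011 and 0.042).

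Kmt5b, which adds the further methyl groups to H4K20 after Kmt5a and was named after its values were seen, had 1905, 1949 and 1835 normalized counts with H1.0 siRNA and TGF-β and 1399, 1433 and 1382 with scramble and TGF-β. In vehicle, Kmt5b had 1822, 1964 and 1792 with H1.0 siRNA and 1723, 1699 and 1654 with scramble. Scramble cells with TGF-β were the low group. H1.0 siRNA raised Kmt5b with TGF-β (log2 fold change 0.43 ± 0.05, adjusted p = 0.0001), and its fall with TGF-β in scramble cells (-0.27 ± 0.05, adjusted p = 0.0035) was lost with a length offset (adjusted p = 0.085), in a fit of those 2 groups alone and after thinning (adjusted p = 0.013 each) and without vehicle scramble replicate 1 or 2 or TGF-β scramble replicate 1 or 3 (adjusted p between 0.013 and 0.017). Kmt5a itself was not called, with log2 fold changes of 0.23 ± 0.12 to 0.37 ± 0.12 and adjusted p-values of 0.032 or more.

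Setd6, which methylates the NF-κB subunit RelA, was higher with H1.0 siRNA under both treatments, at 320.4, 282 and 304 normalized counts against 233, 207 and 205 with TGF-β (log2 fold change 0.49 ± 0.11, adjusted p = 0.0046) and at 316, 259 and 314 against 191, 192 and 215 with vehicle (0.57 ± 0.11, adjusted p = 0.0018). The call with TGF-β was lost without TGF-β scramble replicate 2 or 3 or TGF-β H1.0 siRNA replicate 1 or 3 (adjusted p between 0.013 and 0.021), and both were lost under 4 other settings each, length offset and thinning among them (adjusted p up to 0.053 and 0.024). Of the SMYD family, Smyd3 was higher with H1.0 siRNA and TGF-β, at 254, 237 and 213 normalized counts against 101, 169.6 and 133 with scramble (0.80 ± 0.18, adjusted p = 0.0049), and so was Smyd2, at 891, 925 and 966 against 754, 689 and 683 (0.39 ± 0.09, adjusted p = 0.0062). The Smyd3 call was lost without TGF-β scramble replicate 1 or 3 or TGF-β H1.0 siRNA replicate 1 or 2 (adjusted p between 0.014 and 0.02) and under 3 other settings (adjusted p up to 0.042). That of Smyd2 was lost without any 1 of the 6 TGF-β libraries or vehicle scramble replicate 2 (adjusted p between 0.01 and 0.026), and under 4 other settings (adjusted p up to 0.044). Smyd5 was higher with TGF-β in H1.0 siRNA cells, at 738, 684 and 783 against 507, 487 and 532 with vehicle (0.53 ± 0.10, adjusted p = 0.0022), and the call was lost without vehicle H1.0 siRNA replicate 1 or 2 (adjusted p = 0.012 and 0.013) and with a length offset (adjusted p = 0.013).

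The comparisons of TGF-β in scramble cells and of H1.0 siRNA with TGF-β share the 3 scramble TGF-β libraries, so a library set high or low there moves both, in opposite directions. Side by side, the 4 enzymes higher with TGF-β in scramble cells had log2 values of 0.71 (Ezh2), 0.75 (Hat1), 0.58 (Dot1l) and 0.34 (Hdac1) there, and of -1.20 (Ezh2), -0.69 (Hat1), -0.95 (Dot1l) and -0.29 (Hdac1) with H1.0 siRNA and TGF-β. The comparisons of H1.0 siRNA under the 2 treatments share no library. Of the 11 enzymes higher with H1.0 siRNA and TGF-β and the 5 higher with H1.0 siRNA and vehicle, 5 were in both lists (Hdac10, Kdm4c, Kdm8, Setd6 and Sirt7). Of the 9 lower in each, 6 were in both (Crebbp, Dot1l, Ezh2, Kat2a, Kdm2b and Sirt1). The TGF-β comparisons in the 2 kinds of cells share no library either, and of the 12 enzymes lower in scramble cells and the 5 lower in H1.0 siRNA cells, 4 were in both (Ezh1, Hdac5, Kat2b and Kdm1b). The overlap of the same lists over all genes is not given here, so these overlaps are not read as particular to the enzymes.

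Whether the response to TGF-β depended on H1.0 was tested as the difference of the 2 responses. No enzyme was called, where 0.0333% of all genes were called higher and 0.0111% lower, and 10 of the 72 had an unadjusted p-value under 0.05. Hat1 came nearest, with a difference of -0.80 ± 0.11 (adjusted p = 0.019). Hat1 was the only enzyme called by DESeq2 (-0.81, adjusted p = 8.6e-07) and in the fit with the replicate number as a block (-0.80, adjusted p = 0.005). The next were Kmt5b at 0.30 ± 0.08 (adjusted p = 0.13), Kdm3a at 0.32 ± 0.11 (adjusted p = 0.27) and Ezh1 at 0.41 ± 0.14 (adjusted p = 0.28).

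Partner subunits, which give the enzymes their targets, were read from lists of their own, and the partner genes named here were picked after their values were seen. Of 9 PRC2 partners, 3 were higher (33.3%, against 10.5% of all genes) and 1 lower (11.1%, against 7.94%) with TGF-β in scramble cells (median log2 fold change 0.26). The counts were the same in H1.0 siRNA cells (median 0.21, all genes 9.14% higher and 6.6% lower). With H1.0 siRNA and TGF-β, 1 was higher (against 13% of all genes) and 4 were lower (44.4%, against 11.3% of all genes, median 0.07), and none was called with H1.0 siRNA and vehicle (median -0.12). Suz12, the core PRC2 subunit, had 1334, 1299 and 1624 normalized counts with H1.0 siRNA and TGF-β and 2014, 2099.9 and 2283 with scramble and TGF-β. In vehicle, Suz12 had 1199, 1189.7 and 1293 with H1.0 siRNA and 1499, 1503 and 1565 with scramble. It was thus highest where Ezh2 was (log2 fold change -0.59 for H1.0 siRNA with TGF-β, adjusted p = 0.00031, and 0.49 for TGF-β in scramble cells, adjusted p = 0.0017, which was 0.011 without vehicle scramble replicate 1). Phf1, an accessory subunit, was lower with TGF-β in scramble cells (-1.0, adjusted p = 0.00015) and in H1.0 siRNA cells (-0.77, adjusted p = 0.00059).

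Of 24 co-repressor subunits that carry class I deacetylases, 4 were higher and 1 lower with TGF-β in scramble cells, 6 higher and none lower with TGF-β in H1.0 siRNA cells, 1 higher and 5 lower with H1.0 siRNA and TGF-β, and 1 higher and 7 lower with H1.0 siRNA and vehicle. The higher ones made up 16.7% and 25% of the list with TGF-β in scramble and in H1.0 siRNA cells, against 10.5% and 9.14% of all genes, and the lower ones 20.8% and 29.2% with H1.0 siRNA in TGF-β and in vehicle, against 11.3% and 11.2%. Beside the counts of 1 or none, 7.94% and 6.6% of all genes were lower with TGF-β in scramble and in H1.0 siRNA cells. With H1.0 siRNA, 13% and 13.4% of all genes were higher in TGF-β and in vehicle. The median log2 fold changes of the 24 subunits were small in these comparisons, at 0.05, 0.12, -0.09 and -0.04. Mta1, a NuRD subunit, was lower with H1.0 siRNA, by -0.67 with TGF-β and -0.86 with vehicle (adjusted p = 6e-06 and 1.4e-06), and so was Tbl1x, another co-repressor subunit (-0.84 and -1.24, adjusted p = 6.7e-06 and 7.3e-07). Of 11 COMPASS partners of the H3K4 methyltransferases, 3 were higher (27.3%, against 13.4% of all genes) and 2 lower (against 11.2% of all genes) with H1.0 siRNA and vehicle. Of 21 acetyltransferase complex subunits, 4 were lower with H1.0 siRNA under each treatment (19.0%, against 11.3% of all genes with TGF-β and 11.2% with vehicle), and 3 higher (14.3%, against 13.0% and 13.4%). Among 23 histone methyl enzymes outside the symbol rule, 5 were higher and 9 lower with H1.0 siRNA and TGF-β (21.7% and 39.1%, against 13.0% and 11.3% of all genes), and 6 higher and 7 lower with vehicle (26.1% and 30.4%, against 13.4% and 11.2%). The widest of these was Carm1, which methylates H3R17, at 1056, 1207 and 1174 normalized counts with H1.0 siRNA and TGF-β against 2670.4, 2699.7 and 2639.6 with scramble (-1.22, adjusted p = 3.5e-07), and 816, 849 and 842 with H1.0 siRNA and vehicle against 2345, 2235 and 2227 with scramble (-1.44, adjusted p = 1.8e-07).

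Gene totals can hide a change of transcript, which was read from the share of each gene's TPM in its leading transcript. Protein-coding transcripts took 90.5% to 93.2% of the enzymes' counts in the 12 libraries, and transcripts with retained introns 4.06% to 5.86%. Kdm2b is given as an example whose shares differed between groups, and was picked after they were seen. The transcript Kdm2b-201 took 65.4% to 68.1% of its TPM with H1.0 siRNA and TGF-β and 75.1% to 78.0% with scramble and TGF-β. With vehicle it took 43.7% to 55.6% with H1.0 siRNA and 53.3% to 59.9% with scramble. Shares also differed for Ep300 and Ezh1, likewise picked after they were seen. Ep300-201 took 53.6% to 59.6% with H1.0 siRNA and TGF-β and 60.8% to 85.1% with scramble and TGF-β. Its vehicle shares were 52.1% to 65.2% with H1.0 siRNA and 63.4% to 69.0% with scramble. Ezh1-203, not its leading transcript, took 6.16% to 39.2% with H1.0 siRNA and TGF-β and 0% with scramble and TGF-β. Its vehicle shares were 0% to 67.4% with H1.0 siRNA and 0% to 33.1% with scramble. Hdac1-201 took 84.0% to 90.7% and Hat1-201 took 94.5% to 99.8% in all libraries. Salmon divides reads among overlapping transcripts, so these shares are estimates and were not tested.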

How the data were processed

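The authors quantified paired-end, rRNA-depleted reads with Salmon against an mm10 transcript index, and the deposited files hold the estimated counts and TPM that Salmon gave per transcript, with transcript and effective length, for 1 library each. Estimated counts were summed per gene with GENCODE M21 (GRCm38) and rounded to whole numbers. Transcripts matched to that annotation held 99.54% to 99.6% of the counts. All genes that reached 10 counts summed over the 12 libraries were fitted in 1 model of 4 groups with edgeR 4.0.16 in R 4.3.3 (TMM scaling, quasi-likelihood F test, Benjamini-Hochberg adjustment over all genes tested), and called at an adjusted p under 0.01. The fit was tested on simulated data. Normalized counts are TMM-scaled to the mean library size, and TPM alone was used between genes. A read from overlapping genes may be divided between them.

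The enzymes, gene lists and tests were chosen with earlier results of these data known. Enzymes were named by a rule: the 5 widest called changes per direction and comparison at a mean of at least 100 normalized counts, the class I HDACs, Ep300, Crebbp, Ezh1, Ezh2, and the enzyme highest in TPM in each class. Others are marked as named after their values were seen. Alternatives were RLE scaling, 2 other count filters, DESeq2 1.42.0, fits of the compared groups alone, the replicate number as a block, a length offset, thinning to the lowest depth, and leaving out each library. Leaving out all replicates 3 was added after seeing the data. The replicates are called biological by the study, and p-values set group differences against the spread between them, estimated over the 4 groups together. The main fit did not use the replicate number, so that spread includes any differences between replicate numbers. The length of the treatment of these libraries is not given in the sources used here. The authors' own comparisons were not used.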

Additional observations from a re-analysis of the deposited data

How the results depend on the processing

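Of the 59 calls made on the enzymes, 26 held under all 21 alternatives, 33 were lost under at least 1, and none changed sign. By comparison, 7 of 16 calls held for TGF-β in scramble cells, 4 of 9 for TGF-β in H1.0 siRNA cells, 9 of 20 for H1.0 siRNA with TGF-β and 6 of 14 for H1.0 siRNA with vehicle. DESeq2 called 10 enzymes lower with TGF-β in H1.0 siRNA cells, 17 lower with H1.0 siRNA and vehicle, and 1 lower for the difference in response. Fits of the compared groups alone called 7 enzymes lower with TGF-β in scramble cells, 2 higher and 3 lower with TGF-β in H1.0 siRNA cells, 7 higher with H1.0 siRNA and TGF-β, and 2 higher with H1.0 siRNA and vehicle. A length offset left 1 higher and 3 lower with TGF-β in H1.0 siRNA cells and 1 higher with H1.0 siRNA and vehicle, and thinning left 3 higher in the last. The share of all genes called under each of these settings is not given here, so the counts are not read as a result about the enzymes. The cause of these shifts in count was not tested.

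Leaving out 1 library at a time gave 3 to 5 higher and 5 to 15 lower enzymes for TGF-β in scramble cells, 1 to 4 higher and 3 to 6 lower for TGF-β in H1.0 siRNA cells, 6 to 12 higher and 6 to 9 lower for H1.0 siRNA with TGF-β, 4 to 6 higher and 5 to 13 lower for H1.0 siRNA with vehicle, and 0 for the difference in response. These ranges stand without the share of all genes called in each fit. The sources do not say that a replicate number marks a shared isolation. Same-numbered libraries deviated together with r of 0.1 to 0.579 (18 pairs), and 12 of 12 libraries correlated best with their own number, which is a hint from the data and not from the design. With the replicate number as a block, 9 enzymes rose with TGF-β in scramble cells, 9 were higher and 10 lower with TGF-β in H1.0 siRNA cells, 18 higher with H1.0 siRNA and TGF-β, 9 higher and 14 lower with H1.0 siRNA and vehicle, and 1 lower for the difference in response. Of all genes, 15.4% rose with TGF-β in scramble cells and 17.4% were higher with H1.0 siRNA and vehicle under the block. For the other block counts the share of all genes is not given here, so they are not read as a result about the enzymes.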
